A study of Mus musculus with 13 samples.

Results

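The interferon-induced antiviral effectors followed here are 6 genes, *Ifit1*, *Ifit2*, *Ifit3*, *Ifi44*, *Rsad2* and *Isg20*, of the 13222 genes listed in the expression table. They were taken by name, with their changes in these data already known, and all 6 passed the filter on low reads. Expression was measured in 13 bulk RNA libraries of 4T1-Thy1.1, a mouse mammary carcinoma line. All groups share this line and the culture medium with serum, which the labels give as DMEM/F12 and the methods as RPMI. Control cells were left untreated (n = 3). The other groups received 200 ng/mL doxorubicin, a topoisomerase poison that damages DNA (DOX, n = 4), 25 ng/mL of recombinant IL-17A, a proinflammatory cytokine made by some T cells (IL-17A, n = 3), or both at the same doses (DOX+IL-17A, n = 3), and RNA was collected after 48 hours. The methods speak of biological replicates for the study in general, but no label ties these libraries to separate cultures, so a part of the spread between them may be technical. The comparisons ask how DOX moved these effectors and whether adding the cytokine changed their level.

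Interferons bind receptors that signal through JAK kinases to transcription factors, which activate genes that carry an interferon-stimulated response element (ISRE) near their start. The products block viruses at several steps and are also switched on in tumor cells when DNA or RNA is sensed in the cytosol. IFIT1, IFIT2 and IFIT3 are tetratricopeptide repeat proteins that bind one another, and IFIT1 holds back translation of RNA whose cap lacks a methyl group. *Rsad2* encodes viperin, a radical SAM enzyme that makes a chain-terminating nucleotide. *Isg20* encodes an exonuclease that degrades RNA, and *Ifi44* encodes a cytosolic protein with antiviral activity.

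In the mm10 (GRCm38) assembly, *Ifit2* (chr19:34550694-34576419), *Ifit3* (chr19:34583531-34588731) and *Ifit1* (chr19:34640871-34650009) lie on the plus strand within a stretch of 99.3 kb that holds 6 *Ifit* genes. *Ifi44* (chr3:151730922-151749960) and *Rsad2* (chr12:26442746-26456452) lie on the minus strand, and *Isg20* (chr7:78913424-78920396) on the plus strand. All are annotated as protein coding. Sequence upstream of their starts was read from RefSeq (GRCm38.p6), which gave a window of 250 bases before each start for 6 of 6 genes, with 2 starts for *Ifit2* and 3 for *Isg20*. The windows were searched on both strands for the ISRE core GAAANNGAAA, for TTCNNNGAA, known as the GAS element of interferon-responsive genes, and for the NF-κB motif GGGANTTTCC. *Ifit1*, *Ifit3* and *Rsad2* are printed because their windows hold ISRE letters, and the first window of *Isg20* because it holds a GAS match instead. Matches are in capitals, and each sequence is the gene strand, 5′ to 3′, without bases that lie inside the annotated gene or a neighboring *Ifit* gene.
Ifit1 (chr19:34640744-34640870, plus strand): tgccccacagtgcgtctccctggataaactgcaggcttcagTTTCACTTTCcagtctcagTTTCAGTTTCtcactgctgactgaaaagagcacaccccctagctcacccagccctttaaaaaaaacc
Ifit3 (chr19:34583279-34583528, plus strand): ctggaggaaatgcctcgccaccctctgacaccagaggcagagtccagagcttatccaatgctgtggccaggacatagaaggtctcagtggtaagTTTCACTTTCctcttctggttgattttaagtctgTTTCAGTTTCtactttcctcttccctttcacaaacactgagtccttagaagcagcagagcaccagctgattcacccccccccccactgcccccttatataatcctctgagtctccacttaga
Rsad2 (chr12:26456453-26456702, minus strand): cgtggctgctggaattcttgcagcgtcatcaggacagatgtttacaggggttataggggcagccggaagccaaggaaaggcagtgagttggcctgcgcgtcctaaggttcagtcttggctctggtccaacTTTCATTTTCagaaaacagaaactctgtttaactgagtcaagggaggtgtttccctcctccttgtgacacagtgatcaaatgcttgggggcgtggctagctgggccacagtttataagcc
Isg20 (chr7:78913174-78913423, plus strand): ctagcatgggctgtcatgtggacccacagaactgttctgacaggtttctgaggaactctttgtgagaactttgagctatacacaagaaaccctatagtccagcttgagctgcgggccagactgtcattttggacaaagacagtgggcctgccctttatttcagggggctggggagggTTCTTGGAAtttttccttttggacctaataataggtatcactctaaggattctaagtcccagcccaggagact

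*Ifit1* and *Ifit3* each held 2 ISRE matches, and the same letters, TTTCACTTTC and then TTTCAGTTTC, stood in both genes in the same order. *Rsad2* held 1, TTTCATTTTC. All 5 lay on the reverse strand. In the capitals of *Isg20* the letters are TTCTTGGAA, and the first window of *Ifit2* held 1 GAS match too, TTCCTGGAA, while the *Ifi44* window held no match of the 3 motifs. Across all 32851 RefSeq windows, 2.98% held the ISRE letters, 7.02% the GAS letters and 0.356% the NF-κB letters, which no effector window held. The matches overlapped no other motif, and they describe letters only.

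The table gives TMM-normalized values, which are read counts divided by a library size corrected for RNA composition. Reads came from the 3′ ends of transcripts, so a value does not grow with transcript length. Libraries held 4445592 to 16930600 reads on listed genes, and 3 reads, used as the smallest detectable amount, equal 0.183 to 0.613 normalized units. This limit covers counting error only, since the reads carry no molecular identifiers. The lowest count of any effector was 35 reads, for *Ifit3* with IL-17A, and the highest was 5054, for *Ifi44* with DOX. Of the 75 base stretches in the last 400 bases of the *Ifit3* transcript, 12.9% also occur in *Ifit3b*, so reads from them might not be assigned to *Ifit3* alone. This is a share of stretches and not of reads. How reads were assigned was not examined, so the levels of *Ifit3* are uncertain by an unknown amount. The other 5 effectors shared none of these stretches with another gene. Markers of mammary epithelium (8 of 8 listed) summed to 955 to 2365 normalized units, immune markers (4 of 8 listed) to 10.6 to 51.3, with at most 1 of the 4 at 0 in a library, and DOX replicate 1 stood apart in red blood cell and skeletal muscle markers (66.5 and 190 units, at most 14.4 and 28.1 elsewhere). Endothelial markers and mitochondrial genes were not listed.

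The effectors were chosen by their measured change with DOX relative to control and by the lower values seen when IL-17A was added to DOX. Those comparisons, and the combination relative to control, which they fix, are therefore given as descriptions without p-values. Changes are log2 fold changes on log2(value + 1) from limma with its standard error (SE). A gene counts as called at a Benjamini-Hochberg adjusted p under 0.05, over all 12319 genes tested, with a fold change above 2. In bulk RNA a change in the number of expressing cells cannot be told apart from a change in RNA per cell.

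All 6 effectors were higher with DOX, by 2.01 to 24.5 times in mean value. *Ifi44* stood at 14.0, 8.95 and 16.3 normalized units in control and at 210.1, 213, 405 and 452 with DOX. Its group means were 13.1 ± 3.75 (SD, n = 3) and 320.1 ± 127 (SD, n = 4), a log2 fold change of 4.46 (SE 0.33). The lowest DOX library was thus far above the highest control library, and the DOX libraries formed a lower and a higher pair. *Rsad2*, the viperin gene, read 15.9, 18.0 and 12.1 in control and 181, 169, 261 and 294 with DOX. The groups were again far apart, with means of 15.3 ± 2.95 and 226 ± 61.1 and a log2 fold change of 3.78 (SE 0.32).

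Among the tetratricopeptide repeat genes, *Ifit1* and *Ifit3* moved by similar amounts. *Ifit1* had 12.5, 12.4 and 10.3 units in control and 103, 125, 157 and 143 with DOX, an 11.2-fold higher mean (log2 fold change 3.37, SE 0.41). For *Ifit3* the control values were 6.77, 5.24 and 7.78 and the DOX values 56.0, 60.2, 77.3 and 88.3, a 10.7-fold higher mean (log2 fold change 3.22, SE 0.31). Neither gene had overlapping groups. *Ifit2* moved less. It had 22.3, 8.16 and 14.0 units in control and 29.7, 30.7, 37.2 and 33.5 with DOX, a 2.21-fold higher mean (log2 fold change 1.19, SE 0.32), and control replicate 1 was the library nearest to the DOX range.

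*Isg20*, the exonuclease gene, had the widest control group. Its control libraries read 26.1, 123 and 50.0 units, a 4.73-fold range, and its DOX libraries 92.6, 124, 148 and 171. Control replicate 3 lay above the lowest DOX library, so the groups overlapped, and the log2 fold change was 1.24 (SE 0.41). In all, 6 of 6 effectors were called higher with DOX, against 9.15% of all tested genes, and 5 of 6 had groups that did not overlap, against 18.5%. Nothing is read from these counts because the comparison was known when the genes were chosen. Their median log2 fold change was 3.30, beside 0.09 for all tested genes. When libraries were scaled by size alone, the median of all genes moved to 0.24 here, from 0.04 to 0.20 for DOX+IL-17A against control and from 0.02 to 0.22 against IL-17A, while each effector kept its direction in these comparisons. *Isg20* was the least firm of the calls, called in 5 of 13 fits that each left out 1 library. It lost its call without control replicate 1 (log2 fold change 0.72) or 5, DOX replicate 2, 3 or 4, DOX+IL-17A replicate 3, or IL-17A replicate 2 or 3. It was also not called by voom, edgeR or DESeq2 on recovered reads. *Ifit2* lost its call without control replicate 3 (log2 fold change 0.85). Without DOX replicate 1, all 6 were called.

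**Figure D1:**
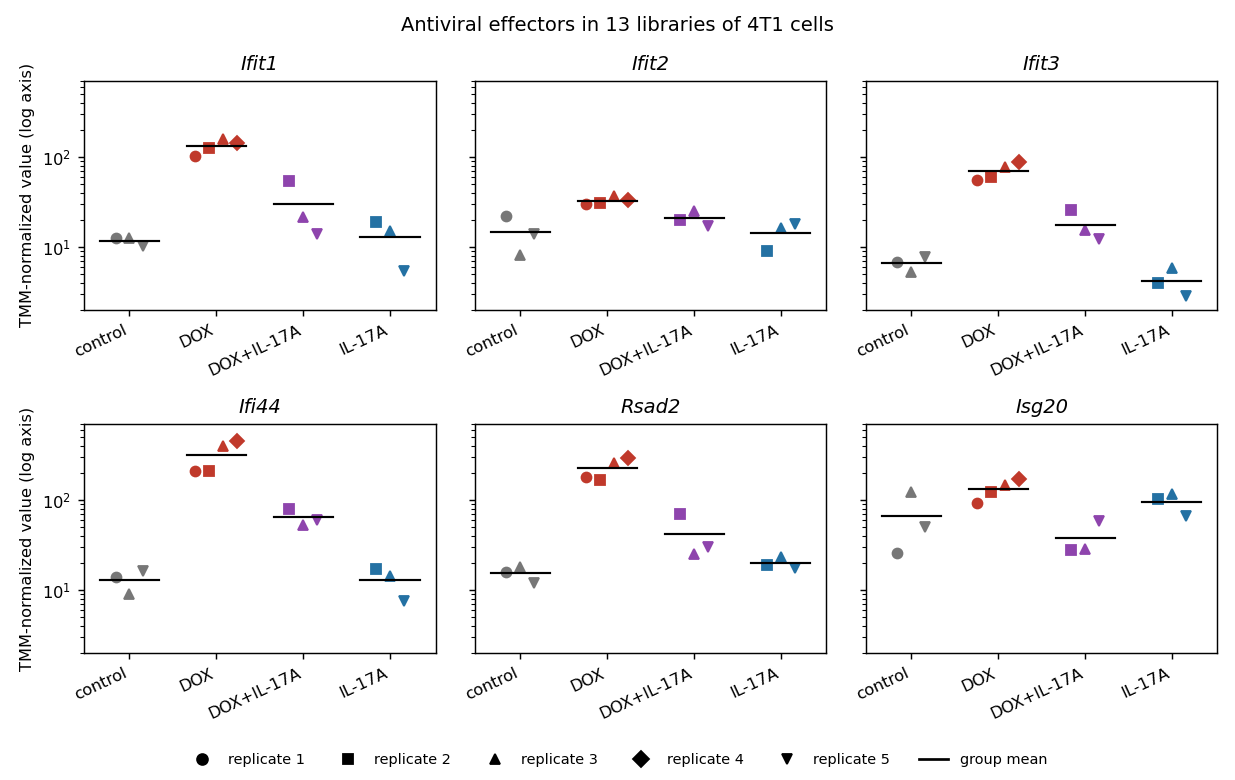
TMM-normalized value (vertical axis, log scale) of each effector in each of the 13 libraries, by condition, with the marker shape giving the replicate number and the horizontal bar the group mean. *Ifi44*, *Rsad2*, *Ifit1* and *Ifit3* are highest in the 4 DOX libraries and intermediate with DOX+IL-17A, *Ifit2* spans a narrow range, and *Isg20* is lowest by mean with DOX+IL-17A.

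With IL-17A added to DOX, each effector was lower than with DOX alone, and no DOX+IL-17A library reached the lowest DOX library for any of the 6. *Rsad2* read 71.2, 25.3 and 30.1 units in DOX+IL-17A replicates 2, 3 and 5, with a mean of 42.2 ± 25.2 (SD, n = 3) that was 18.6% of the DOX mean (log2 fold change -2.51, SE 0.32). *Ifi44* read 80.2, 53.4 and 60.05, a mean of 64.5 ± 13.9 or 20.2% of DOX (log2 fold change -2.23, SE 0.33). These genes, the highest with DOX, were also the highest of the 6 with both agents. *Ifit1* had 54.4, 21.5 and 13.9 units, a mean of 22.7% of that with DOX (log2 fold change -2.31, SE 0.41), and its replicate 2 was 3.91 times replicate 5. *Ifit3* had 25.6, 15.5 and 12.2 units, a mean of 25.2% (log2 fold change -1.97, SE 0.31). In *Ifit1*, *Ifit3*, *Ifi44* and *Rsad2* alike, replicate 2 of DOX+IL-17A was the highest of its group.

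*Ifit2* differed least, with 20.0, 25.2 and 17.04 units and a mean of 63.4% of DOX (log2 fold change -0.65, SE 0.32). *Isg20* read 27.8, 28.8 and 58.2, a mean of 28.6% of DOX (log2 fold change -1.83, SE 0.41), and here replicate 5 was the high library. As calls, 4 of 6 effectors (*Ifit1*, *Ifit3*, *Ifi44* and *Rsad2*) were lower, against 0.325% of all tested genes, and 6 of 6 did not overlap, against 5.61%, with nothing read from either count. The median log2 fold change was -2.10, beside -0.03 over all genes. The calls depended on single libraries and on the test, as edgeR did not call *Ifit1* (log2 fold change -2.15). Without DOX+IL-17A replicate 3 the number called fell to 0, when 1 gene of the whole table was called lower or higher. It was 1 without DOX+IL-17A replicate 5, 1 without DOX replicate 4 and 2 without DOX replicate 3. In the same order, 4, 7 and 15 genes of the whole table were called, lower or higher, against 54 with all libraries. The log2 fold changes of *Ifit1*, *Ifit3*, *Ifi44* and *Rsad2* stayed between -2.95 and -1.75 in all 13 fits. *Isg20* gained a call without control replicate 1 or 3, which changes the estimate of the spread and not the groups compared. Without DOX replicate 1 the 4 calls stood.

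Summed immune markers were highest with DOX, at 18.6 to 21.3 units in control, 27.1 to 51.3 with DOX, 12.5 to 19.6 with DOX+IL-17A and 10.6 to 16.3 with IL-17A. Most of that sum came from *Csf1r* and *Cd68*. Group means in control, DOX, DOX+IL-17A and IL-17A were 15.7, 22.8, 7.15 and 4.93 units for *Csf1r* and 3.47, 12.9, 6.45 and 7.85 for *Cd68*. *Itgam* had 0.431, 0.843, 0.434 and 0.403 in the same order, near the smallest detectable amount. *Ptprc*, which encodes the pan-leukocyte protein CD45, had 0.685, 1.09, 3.01 and 0.187, near that amount in control and with IL-17A. Summed epithelial markers were lower in both groups with DOX (1139 to 1243 and 955 to 1263 units) than in control (2158 to 2365) or with IL-17A (1905 to 2232). *Krt14* went the other way, with means of 41.1, 81.9 and 76.9 units in control, DOX and DOX+IL-17A. *Cldn3* had 144, 133 and 98.0 in the same order. The part of the immune or epithelial markers in these results was not tested. In DOX replicates 1 to 4 the immune sum was 51.3, 42.9, 27.1 and 29.3 units.

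Measured against control, the combination left some effectors higher. *Ifi44* remained 4.93-fold above control in mean value (log2 fold change 2.24, SE 0.35), *Rsad2* 2.75-fold (1.27, SE 0.34) and *Ifit3* 2.69-fold (1.26, SE 0.33). These 3 of 6 were called higher, against 6.95% of all tested genes. With *Ifit1*, at 2.55-fold (1.06, SE 0.44), 4 of 6 had groups that did not overlap, against 15.6%. *Ifit2* (log2 fold change 0.54, SE 0.34) and *Isg20* (-0.58, SE 0.44) overlapped control, and *Isg20* had the lower mean with the combination, 38.3 ± 17.3 against 66.4 ± 50.7 units. The median of the 6 was 1.16, beside 0.04 for all genes, and 0.69 without DOX+IL-17A replicate 2. In the absence of that library *Ifit3* and *Rsad2* were not called, and *Rsad2* was not called without control replicate 5. Both also lost their call in a fit of only the groups compared. *Ifit1* gained a call without DOX+IL-17A replicate 5, and *Isg20* gained one, as lower, without control replicate 1.

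IL-17A alone was treated as no part of the choice of genes, although earlier results were known and it shares the control libraries with DOX against control. None of the 6 was called and each overlapped control. The share of all tested genes with overlapping groups was not computed here, so nothing is read from the overlap. *Ifi44* read 17.01, 14.5 and 7.55 units with IL-17A, a mean of 13.01 ± 4.90 beside 13.1 ± 3.75 in control (log2 fold change -0.04, 95% interval -0.79 to 0.71, adjusted p = 0.995, limma). *Ifit1* read 18.7, 14.9 and 5.41 (log2 fold change -0.01, interval -0.94 to 0.93, adjusted p = 1). *Ifit2* read 9.01, 16.2 and 17.9 (0.01, interval -0.72 to 0.73, adjusted p = 1). For these genes the intervals still allow close to a 2-fold change either way.

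The other members leaned in different directions, with intervals that reach further from zero. *Ifit3* had 3.94, 5.82 and 2.87 units, lower by mean than in control (log2 fold change -0.57, interval -1.27 to 0.13, adjusted p = 0.96). *Rsad2* had 18.9, 23.3 and 17.6 units (0.37, interval -0.35 to 1.08, adjusted p = 0.96). *Isg20* had 103, 117 and 66.7 units, higher by mean (0.76, interval -0.18 to 1.70, adjusted p = 0.96), within the wide control group. Over all tested genes 0.00812% were called higher, which is *Ehf* alone, named after its values were seen, and 0% lower. At an unadjusted p under 0.05 there were 0 of the 6 effectors and 380 genes, and voom, edgeR and DESeq2 called 0 of the 6. The median of the 6 was -0.00, beside 0.02 for all genes, and 0.36 without IL-17A replicate 5, the lowest library of its group for 5 of the effectors with *Ifit2* as the exception.

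DOX+IL-17A against IL-17A gives the effect of DOX in cells that all received the cytokine. It was treated as no part of the choice, although earlier results were known and it shares the DOX+IL-17A libraries with comparisons given as descriptions. Its p-values are therefore not independent support for a response of these genes. *Ifi44* was 4.96-fold higher in mean value (log2 fold change 2.27, SE 0.35, adjusted p = 0.0013, limma) and *Ifit3* 4.22-fold higher (1.82, SE 0.33, adjusted p = 0.0030), higher in 3 of 3 libraries than every IL-17A library. They were called in 13 of 13 fits that left out 1 library. *Rsad2* did not overlap either but missed the threshold (log2 fold change 0.90, SE 0.34, adjusted p = 0.089). *Ifit1* (1.07, SE 0.44, adjusted p = 0.12) and *Ifit2* (0.54, SE 0.34, adjusted p = 0.33) had overlapping groups and were not called.

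*Isg20* had the opposite sign. Its mean was 38.3 ± 17.3 units with DOX+IL-17A and 95.5 ± 26.0 with IL-17A, and the highest library of the first group (58.2) lay under the lowest of the second (66.7), although the difference was not called (log2 fold change -1.34, 95% interval -2.28 to -0.40, adjusted p = 0.056, limma). The adjusted p ran from 0.010 to 0.18 when 1 library was left out, and the gene was called lower without control replicate 1 or 3 and without DOX+IL-17A replicate 5, by DESeq2 (log2 fold change -1.30, adjusted p = 0.028) and in a fit of only the groups compared. In all, 2 of 6 effectors were called higher and 0 lower, against 4.92% and 4.92% of all tested genes, and 3 of 6 lay above without overlap and 1 below, against 16.4% and 15.5%. The number called was 4 without DOX+IL-17A replicate 5, where *Ifit1* was called higher too, and 4 by DESeq2, which added *Rsad2* as higher (log2 fold change 1.09, adjusted p = 0.024) and *Isg20* as lower. The median of the 6, 0.99 beside 0.02 over all genes, was 0.55 without DOX+IL-17A replicate 2.

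The difference between the effect of IL-17A with DOX and its effect without DOX holds a comparison known when the genes were chosen. It too is therefore given as a description, and neither its sign nor its size is separate evidence. It was -2.87 for *Rsad2* (log2 scale, SE 0.46), -2.59 for *Isg20* (SE 0.60), -2.30 for *Ifit1* (SE 0.60), -2.19 for *Ifi44* (SE 0.49), -1.40 for *Ifit3* (SE 0.45) and -0.65 for *Ifit2* (SE 0.47). The median of the 6 was -2.24, beside -0.06 for all genes. Over the whole table limma called 0% of the 12319 genes for this difference, the effectors included, with 556 genes at an unadjusted p under 0.05, and voom and edgeR called 0 and DESeq2 18.

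**Figure D2:**
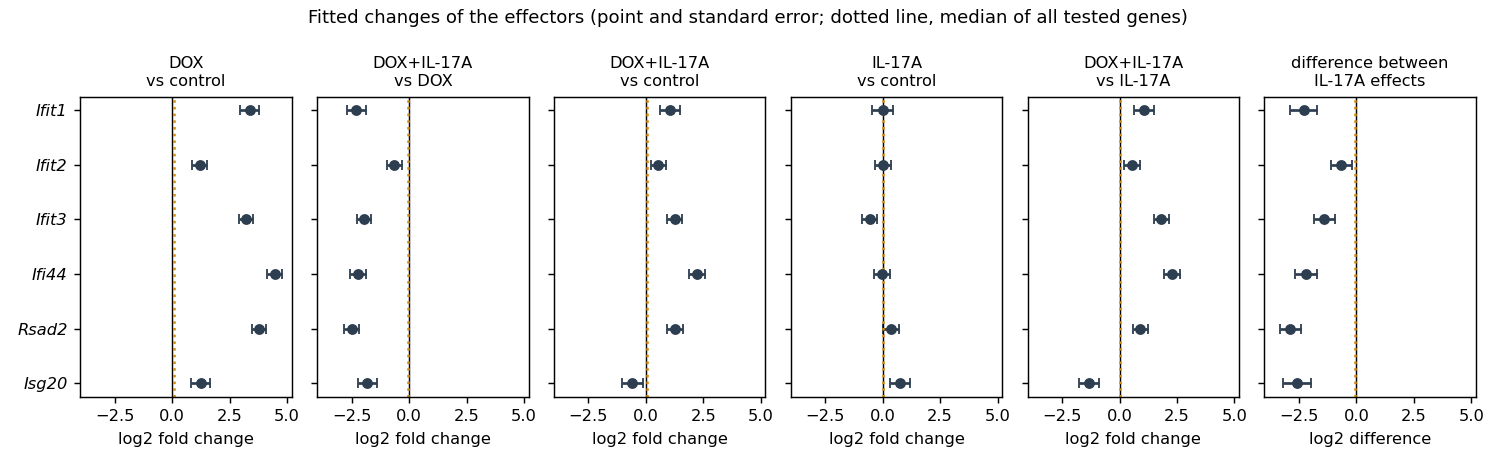
Log2 fold change of each effector (horizontal axis, point with its standard error) in the 5 comparisons between conditions and the difference between the IL-17A effects with and without DOX, with the median of all tested genes as a dotted line. *Ifi44* has the highest value with DOX (4.46), the 6 points for IL-17A alone lie between -0.57 and 0.76, and *Isg20* falls on the negative side against IL-17A (-1.34).

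Across the 4 conditions the order of mean levels differed between members. For *Ifi44*, *Rsad2*, *Ifit1* and *Ifit3* DOX came first and DOX+IL-17A second, with control and IL-17A at the bottom and overlapping. In *Ifit2* the 3 groups below DOX overlapped one another. In *Isg20* the order was DOX, IL-17A, control and DOX+IL-17A, where each neighboring pair overlapped. By mean level *Isg20* stood at the 77.6th percentile of listed genes in control, and the other 5 between the 32.9th and the 47.4th. With DOX *Ifi44* reached the 96.1st and *Rsad2* the 93.9th, and *Ifit2* the 62.4th. Levels are given here per transcript end, as the library method counts them.

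The spread within groups also differed. On the log2 scale the pooled SD within groups was 0.38 for *Ifit3*, 0.42 for *Ifit2*, 0.46 for *Rsad2*, 0.49 for *Ifi44*, 0.63 for *Ifit1* and 0.66 for *Isg20*. DOX replicates 3 and 4 exceeded replicates 1 and 2 in 6 of 6 effectors, as they did in 24.3% of all listed genes. The mean log2 value over the 6 genes was 6.54, 6.67, 7.13 and 7.20 in DOX replicates 1 to 4, 5.38, 4.77 and 4.76 in DOX+IL-17A replicates 2, 3 and 5, 4.00, 4.02 and 4.01 in control, and 4.18, 4.38 and 3.71 with IL-17A. On this mean the control libraries are nearly level, although *Isg20* and *Ifit2* range widely there in opposite order (*Isg20* highest and *Ifit2* lowest in replicate 3).

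Profiles were compared as log2 values centered on each gene's mean, by the root mean square difference over the 13 libraries. All genes of a library share its depth and scaling. *Rsad2* (0.49), *Ifit3* (0.50) and *Ifit1* (0.50) lay nearest to the mean of the other effectors, and *Ifi44* (0.96), *Ifit2* (1.01) and *Isg20* (1.36) farther. *Ifit1* and *Rsad2* were nearest to each other (0.41), while the nearest gene to *Isg20* was *Tor2a* (0.33) and to *Ifit2* was *Spdl1* (0.25). The 8 genes outside the group most like the mean profile of the 6 were *Gbp7* (0.26), *Cd274* (0.31), *Phf11d* (0.32), *Xaf1* (0.32), *Gbp4* (0.35), *Usp18* (0.37), *Igtp* (0.37) and *Adh6b* (0.38), where the median of all tested genes was 1.3. *Gbp7*, *Gbp4* and *Igtp* encode GTPases induced by interferon, *Cd274* the checkpoint ligand PD-L1 and *Usp18* a protease that removes ISG15 from proteins. *Gbp7* had group means of 24.8, 170 and 46.9 units in control, DOX and DOX+IL-17A and *Cd274* of 1.55, 25.0 and 6.70.

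**Figure D3:**
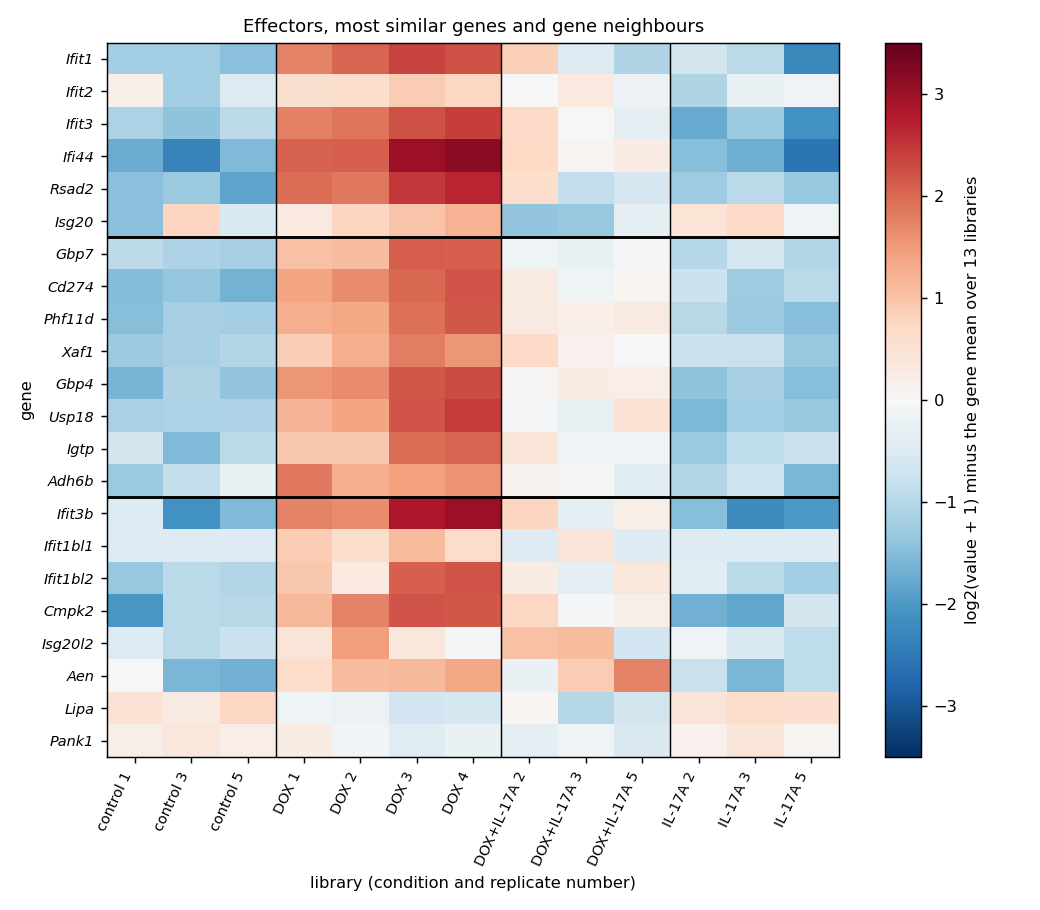
Log2(value + 1) minus the gene's mean over the 13 libraries (color), for the 6 effectors (top), the 8 genes with the most similar profile (middle) and 8 relatives or chromosomal neighbors (bottom), with libraries in columns. The 4 DOX columns are highest for most genes above the second line, *Isg20* is above its mean in control replicate 3 and in IL-17A replicates 2 and 3 and below it with DOX+IL-17A, and *Lipa* and *Pank1* have lower group means in both groups with DOX.

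Of 11 relatives and neighbors, 8 were listed and tested, and 3 (*Ifi44l*, *Rnf144a* and *Slc16a12*) were not listed. The paralog *Ifit3b* went from 4.69 ± 3.35 in control to 70.3 ± 33.4 with DOX and 14.9 ± 5.84 with DOX+IL-17A, close to the levels of *Ifit3*, with the shared stretches described above. *Ifit1bl1* and *Ifit1bl2*, minus-strand genes of the cluster, were low, at 1.44 and 6.62 units with DOX, and *Ifit1bl1* was listed at 0 in all control and IL-17A libraries. *Cmpk2*, which encodes a mitochondrial nucleotide kinase and starts 12752 bases from *Rsad2* on the other strand, rose from 4.23 ± 1.91 to 44.1 ± 13.9 (log2 fold change 3.13, SE 0.39) and stood at 14.4 ± 4.29 with both agents (-1.52 against DOX, SE 0.39, not called). *Aen*, an exonuclease gene that ends 2215 bases before *Isg20*, had 12.4, 51.1 and 48.7 units in control, DOX and DOX+IL-17A, and *Isg20l2*, a paralog of *Isg20*, had 8.87, 24.7 and 24.8. Under DOX their log2 fold changes with the cytokine were -0.26 and -0.08, neither called, beside -1.83 for *Isg20*. *Lipa* (25.6 to 13.1 units with DOX) and *Pank1* (73.2 to 56.2) lie on opposite sides of the cluster, with *Slc16a12* between it and *Pank1*. Neither was called with DOX. *Lipa* was called lower with DOX+IL-17A against control (log2 fold change -1.04) and against IL-17A (-1.08). In all, 6 of 8 were called higher with DOX, against 9.15% of all tested genes, and 1, *Ifit3b*, lower with DOX+IL-17A against DOX, against 0.325%. *Ifit1bl1* is among the 6. Outside DOX it had reads only in DOX+IL-17A replicate 3, so the filter on low reads kept it through its DOX libraries. Nothing is read from its call.

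Of 30 other interferon-induced antiviral genes, 26 were called higher and 0 lower with DOX (median log2 fold change 2.26), and 9 were called lower and 0 higher with DOX+IL-17A against DOX (median -1.20), beside the shares of all tested genes given above. The corresponding effector medians were 3.30 and -2.10. For IL-17A alone 0 of the 30 were called (median -0.06), where 0.00812% of all tested genes were called higher and 0% lower. Against IL-17A the combination had 15 higher (median 1.09), beside 4.92% of all tested genes. The 4 with the highest level were *Ifitm3*, *Ifi27*, *Isg15* and *Trim25*. *Isg15*, the ubiquitin-like modifier, was at 17.9 ± 5.51, 426 ± 74.1 and 90.2 ± 45.3 units in control, DOX and DOX+IL-17A, and *Ifi27* at 111, 490 and 346. *Ifitm3*, which keeps viruses from fusing with membranes, had 500.2 ± 198, 1190.4 ± 173 and 766 ± 160 units. *Trim25* (115, 203 and 148) was not called in any comparison. Of 20 of these genes with a RefSeq window, 6 held the ISRE letters, as did 3 of the 6 effectors and 3.46% of all 27025 genes.

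Of 17 interferon ligands, receptors and signal genes, 12 were tested, and the ligand genes *Ifnb1*, *Ifna4*, *Ifna2*, *Ifnl2* and *Ifnl3* were not among the listed genes. With DOX, 4 of the 12 were called higher (*Stat2*, *Irf7*, *Usp18* and *Socs1*), against 9.15% of all tested genes. With DOX+IL-17A against DOX, 3 were called lower (*Stat2*, *Irf7* and *Usp18*), against 0.325%. The 4 with the highest level, *Jak1*, *Irf1*, *Ifnar2* and *Irf9*, were called in neither. *Irf9* stood at 60.5, 104 and 61.9 units in control, DOX and DOX+IL-17A, *Irf1* at 207, 267 and 219, the receptor subunit gene *Ifnar2* at 103, 83.4 and 138, and the kinase gene *Jak1* at 354, 217 and 238. None of the 12 was called for IL-17A alone, where 0.00812% of all tested genes were called higher and 0% lower. In a list of 10 IL-17A response and receptor genes, 3 were called higher with DOX+IL-17A against DOX (*Lcn2*, *Nfkbiz* and *Zc3h12a*, median of the list 1.79), against 0.114% of all tested genes, and 0 with IL-17A alone (median 1.18). Of 7 tested p53 targets, 1, *Sesn2*, was called higher with DOX, against 9.15% of all genes (median 0.43), and 0 with DOX+IL-17A against DOX.

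**Figure D4:**
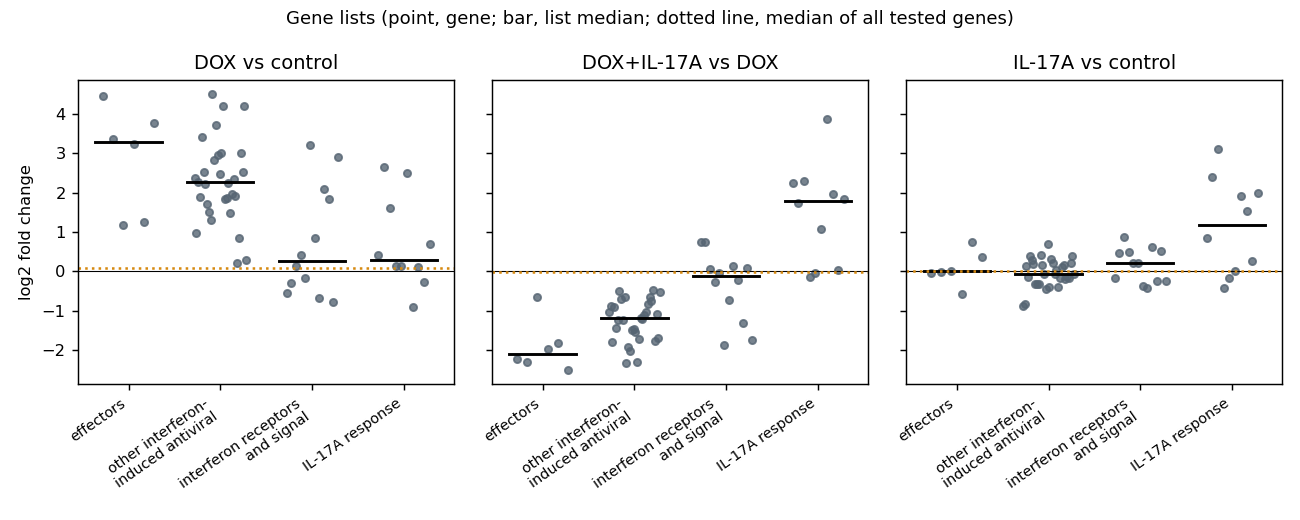
Log2 fold change (vertical axis) of each gene in 4 lists, for DOX relative to control (left), DOX+IL-17A relative to DOX (middle) and IL-17A relative to control (right), with the list median as a bar and the median of all tested genes as a dotted line. The effectors have medians of 3.30, -2.10 and -0.00, and the 30 other interferon-induced antiviral genes 2.26, -1.20 and -0.06.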

How the data were processed

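Per the labels and methods, 3′ mRNA libraries were sequenced as single 75 base reads. The authors checked reads with FastQC, aligned them to mm10 with STAR, counted them per gene with featureCounts and normalized the counts by TMM. The deposited table holds the resulting normalized signal, with 13223 entries, of which 1 repeated *Ifit1* entry was dropped. Names of 17 genes read as dates and were kept. Dividing by the value of 1 read gave whole numbers for 100% of values (tolerance 0.02). Reads per library ranged from 4445592 to 16930600. Replicates differed by more than sampling noise (chi-square per degree of freedom 7.82 to 186).

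limma 3.58.1 with trend was fitted to log2(value + 1) in all 13 libraries, with condition as the only factor, for 12319 genes kept by filterByExpr of edgeR 4.0.16 on the recovered reads. The pseudocount shrinks fold changes of low genes. P-values were Benjamini-Hochberg adjusted over these genes. Tests were run on simulated reads with changes set only in the 2 groups with IL-17A, so recovery of a DOX effect was not checked. Alternatives were voom, edgeR and DESeq2 1.42.0 on recovered reads, other scaling, filters and pseudocount, fits of the compared groups, a replicate block and each library left out.

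The effectors and gene lists were chosen with earlier results of these data known. Named genes were the effectors, their relatives and neighbors, the 4 highest-level genes of both interferon lists and the 8 most similar profiles. Other genes were named after their values were seen, and the result of 1 list gene is not reported here. Promoter windows came from RefSeq (GRCm38.p6) and gene positions and transcripts from GENCODE (GRCm38).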

Additional observations from a re-analysis of the deposited data

How the results depend on the processing

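All 6 effectors kept their direction in every alternative when DOX was set against control and when the combination was set against DOX, control or IL-17A, and for the difference between the IL-17A effects. For the combination against control, though, *Isg20* ranged from -1.10 to -0.0039 when 1 library was left out, so its direction there is not firm. For IL-17A against control the near-zero values changed sign. *Ifit1* was 0.14 with edgeR and 0.12 with DESeq2, and *Ifit2* was -0.0341 with edgeR, -0.0700 with DESeq2 and -0.0338 with library size scaling. When each library was left out in turn, the range was -0.33 to 0.48 for *Ifit1*, -0.34 to 0.34 for *Ifit2* and -0.27 to 0.28 for *Ifi44*. The number called for DOX+IL-17A against DOX ranged from 0 to 5 when 1 library was left out, for DOX+IL-17A against control from 1 to 4 (1 in a fit of only the groups compared), for DOX+IL-17A against IL-17A from 2 to 4 (4 with DESeq2, 3 higher and *Isg20* lower) and for the difference from 0 to 1 (2 with DESeq2). Median log2 fold changes over the same fits ranged from 0.69 to 1.45 for DOX+IL-17A against control, from -0.12 to 0.36 for IL-17A against control, from 0.55 to 1.28 for DOX+IL-17A against IL-17A and from -2.65 to -1.97 for the difference. Calls over all tested genes for DOX+IL-17A against DOX ranged from 1 to 88 when 1 library was left out. The cause of these changes was not tested.

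Replicate numbers do not pair the libraries by any label, and deviations correlated above 0.1 in 8 of 13 pairs with the same number (range -0.185 to 0.515). With the replicate number as a block, 5 effectors were called for DOX against control (median 2.92), 2 for DOX+IL-17A against DOX (*Ifit1* and *Rsad2*), 2 for DOX+IL-17A against control (*Ifi44* and *Rsad2*), 0 for IL-17A against control, 4 for DOX+IL-17A against IL-17A (*Ifit1*, *Ifit3* and *Ifi44* higher, *Isg20* lower) and 0 for the difference (median -1.84). In the same order, the block fit called 1377, 14, 1194, 0, 1357 and 0 of all 12319 tested genes, lower or higher. Without a block these counts were 1888, 54, 1589, 1, 1212 and 0.

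The limits are 3 or 4 libraries a group, calls that turn on single libraries, an overlap in sequence of *Ifit3* with *Ifit3b*, and effectors chosen with their changes known. Depth does not limit their detection, as each had at least 35 reads in every library.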
